A study of Mus musculus with 12 samples.

Results

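The gain of chromosome 7 described here ran over 75.9 Mb, chr7:58075000-133995167 in mouse build mm9, and was called in 2 of 12 mouse tumours, both malignant lymphomas. Its members are the probes of an Agilent array for comparative genomic hybridisation that lie on chromosome 7. They number 9833 of 170305 probes on the array, and 5535 of them lie in the gained interval, 2755 before it and 1543 after it. Each value is the log2 of tumour over reference signal at a probe, centred on the most frequent autosomal value of its array, so 0 stands for the usual copy number of that tumour. The chromosome and the interval were chosen by these same ratios, so levels and ends are given as description, with no test.

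The series holds 8 malignant lymphomas and 4 renal cell carcinomas from C57BL/6 mice, with 1 array per tumour. Mutyh knockout mice lack a DNA glycosylase that removes adenine paired with oxidised guanine. Among the lymphomas, 3 came from wild-type mice given ferric nitrilotriacetate (Fe-NTA), 2 from knockouts given Fe-NTA, 2 from untreated wild types and 1 from an untreated knockout, and the carcinomas came from 3 knockouts and 1 wild type, all given Fe-NTA. Fe-NTA, an iron chelate that damages the proximal tubules of the kidney, was injected into the abdomen 5 times a week for 12 weeks, with a dose of 3 mg iron per kg for week 1 and of 5 mg iron per kg for the 11 weeks that followed. Treated groups began with 20 males each, and the animals were killed at about 120 weeks. Tumour DNA carried the red dye and DNA of normal C57BL/6 kidney, the reference of every array, carried the green dye. Each tumour is named by genotype and animal number, and both tumours with the gain, WT1113 and WT1114, came from treated wild types. Each tumour comes from 1 animal and was read once, so no value has a replicate array.

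Each of 3 slides carried 4 arrays. Slide 1 held the 4 carcinomas, slide 2 held WT1113, WT1114 and the treated knockout lymphomas KO1077 and KO1111, and slide 3 held WT1121, KO1414, WT1405 and WT1420. The spread of differences between neighbouring probes, as Agilent's software reports it, lay between 0.12 and 0.17 on the log2 scale. About 99.9% of spots on each array were well above background in both colours. Bulk DNA was read, so an extra copy in some cells and more copies in fewer cells cannot be told apart. The labelled cell type was set against the antigen receptor loci, which lymphocytes rearrange with loss of DNA. The Igk segment on chromosome 6, at chr6:68214299-70671226, read -0.45 in WT1113 and -0.29 in WT1114, against -0.05 to -0.0017 in the 4 carcinomas. The Igh segment, at chr12:114506215-115252236, read -0.45 and -0.30 in WT1113 and WT1114. Igk read 0.0002 in lymphoma KO1111 and 0.43 in lymphoma WT1405, where the whole of chromosome 6 averaged 0.08 and 0.52. Igh read -0.39, -0.60, 0.01 and -0.69 in the carcinomas KO1080, KO1097, KO1134 and WT1179, where the whole of chromosome 12 averaged -0.41, -0.62, -0.21 and -0.71, so Igh did not separate the types. A segment at the T cell receptor locus Tcra, chr14:54291227-54779814, was called as a loss in WT1114, and its ends come from that call. It read -0.28 in WT1114 and -0.12 in WT1113. Over all lymphomas it read -0.49 to -0.12, against -0.07 to -0.02 in the 4 carcinomas, with no overlap. The targeted gene was checked at its 2 probes. At chr4:116490496-116490555, Mutyh read -3.21 to -2.39 in the 6 knockout tumours and -0.75 to 0.14 in the 6 wild-type ones, with no overlap. At the other, chr4:116480656-116480715, it read -0.58 to 0.26 in knockouts and -0.82 to 0.20 in wild types.

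Array comparative genomic hybridisation reads copy number as the ratio of tumour to normal DNA along each chromosome. A gain of part of a chromosome adds a copy of every gene between its ends, and a gene that an end cuts through is present in extra copy in part only. Mouse chromosome 7 carries imprinted gene clusters, which are read from the copy of only one parent, the beta-globin genes and large families of olfactory receptor genes. With 3 copies in place of 2 in every cell and no compression of the array's scale, the log2 ratio would be 0.585.

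The proximal end of the gain lay within Nell1, which encodes a secreted protein with roles in bone formation, and the distal end lay between Doc2a, a calcium sensor of vesicle release, and Taok2, a protein kinase. Both ends are shown by the array probes on either side of them. They are the ends of the called gain in WT1113, which segmentation over many probes placed, and not the step between 2 probes alone. The last probe before the gain is at chr7:58067833-58067892 and the first gained one at chr7:58075000-58075059, both named Nell1. The last gained probe is at chr7:133995108-133995167, named Doc2a, and the first one after the gain is at chr7:134009108-134009167, with no gene name. The sequences are those of the array files, which do not state the strand.
Nell1, last probe before the gain: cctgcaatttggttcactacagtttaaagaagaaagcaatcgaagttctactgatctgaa
Nell1, first gained probe: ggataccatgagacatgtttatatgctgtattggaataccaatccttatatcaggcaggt
Doc2a, last gained probe: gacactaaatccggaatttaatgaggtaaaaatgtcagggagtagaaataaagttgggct
Unnamed, first probe after the gain: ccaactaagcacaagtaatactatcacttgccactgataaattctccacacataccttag

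At the proximal end, the last probe before the gain read 0.10 in WT1113 and 0.23 in WT1114, against -0.19 to 0.36 in the other 10 tumours. The first gained probe read 0.49 in WT1113 and 0.46 in WT1114, against -0.06 to 0.28 in the other 10 tumours. At this end, WT1113 and WT1114 thus lay inside the range of the others on one probe and above all of them on the next. At the distal end, the Doc2a probe read 0.67 in WT1113 and 0.53 in WT1114, against 0.04 to 0.19 in the others, again with no overlap. The next probe read 0.20 in WT1113 and 0.15 in WT1114, against -0.16 to 0.20 in the others, with KO1111 on slide 2 the highest.

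Over the 100 probes on either side of the proximal end, WT1113 averaged 0.35 ± 0.18 (SD over probes) inside and -0.03 ± 0.14 outside. WT1114 averaged 0.32 ± 0.22 inside and 0.03 ± 0.18 outside. The steps were 0.38 and 0.29, against 0.0037 to 0.07 in the other 10 tumours. At the distal end WT1113 averaged 0.55 ± 0.19 inside and 0.14 ± 0.15 outside, and WT1114 averaged 0.42 ± 0.22 inside and 0.08 ± 0.19 outside. The steps there were 0.41 and 0.34, against 0.02 to 0.09 in the other 10 tumours. All 10 stepped the same way at both ends, by less than either tumour with the gain.

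**Figure D1:**
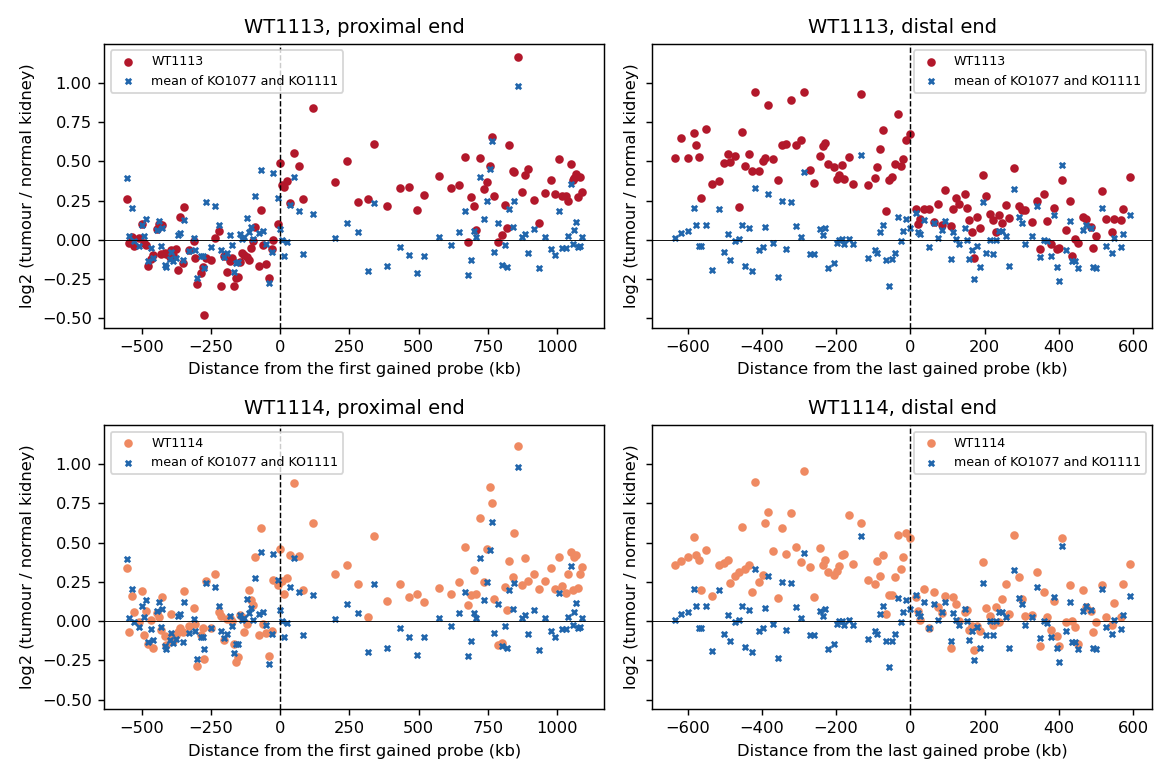
Each panel plots log2 of tumour over normal kidney signal at 120 probes around an end of the gain, against the distance in kb from the first or last gained probe (dashed line). Dots are WT1113 (top) or WT1114 (bottom) and crosses the mean of KO1077 and KO1111, the other arrays of slide 2. Between the means of 100 probes on each side, the dots step at the line by 0.38 and 0.41 in WT1113 and by 0.29 and 0.34 in WT1114, while KO1077 and KO1111 stepped by 0.05 and 0.07 at the proximal end and by 0.05 and 0.08 at the distal end.

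A single break fitted within 200 probes placed the distal end between 133995167 and 134009108, a gap of 13.9 kb with no probe, in both WT1113 and WT1114. Breaks within 2 log-likelihood units of the best ran to 134015312 in WT1113, and from 133982774 to 134015312 in WT1114. In the order of genes in the RefSeq table, Ino80e and Hirip3 lie between Doc2a and Taok2, and no probe carries either name. The gained side next to the end held Fam57b, a ceramide synthase, with 0.63 in WT1113 and 0.44 in WT1114 over 2 probes, and the transcript AK085649 with 0.63 and 0.56. On the other side, Taok2 read 0.12 and 0.04 over 2 probes, Tmem219 read 0.19 and 0.21 on 1 probe, and the transcript ENSMUST00000121612 read 0.16 and 0.07 over 2 probes.

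The proximal end fell between 58067892 and 58075000 in WT1113, a gap of 7.11 kb, with a range of supported breaks from 58050071 to 58075000. In WT1114 the best break lay between 58044465 and 58050012, with a range from 58033619 to 58075000 that holds the break of WT1113. The 2 probes between these places, which start at 58050012 and 58067833, read 0.26 and 0.23 in WT1114 and -0.0010 and 0.10 in WT1113. They read 0.39 and 0.36 in KO1077 and 0.46 and 0.17 in KO1111, which have no gain. After subtraction of the mean of KO1077 and KO1111 at each probe, an alternative chosen after seeing the data, both tumours broke between 58067892 and 58075000, and no other break was supported. At this end KO1111 also had a small step of its own, below the threshold for a call, with a mean of 0.04 over the rest of the chromosome from 57928336 on and -0.0065 before it.

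Nell1 was split by the gain, with 5 of its 93 probes on the gained side. These 5 averaged 0.36 in WT1113 and 0.32 in WT1114, and the others averaged -0.04 in WT1113 and 0.02 in WT1114. Both tumours thus held the gain at the end of Nell1 that lies farther along the chromosome, and not at the rest. Whether the break lies in an exon or an intron was not resolved, since no mm9 gene annotation was used here. The nearest other names outside were Slc6a5, a glycine transporter, with -0.0046 in WT1113 and 0.01 in WT1114 over 6 probes, and the single-probe transcripts ENSMUST00000056442 with -0.0077 and -0.06 and AK020387 with -0.0029 and 0.09. Inside, Ano5, a membrane protein of muscle, read 0.36 and 0.45 over 8 probes, Slc17a6, a glutamate transporter of synaptic vesicles, read 0.35 and 0.30 over 5 probes, and the transcript AK042550 read 0.28 and 0.18 on 1 probe. All 3 names inside lay above all 3 outside in both tumours.

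Inside the interval, WT1113 averaged 0.42 ± 0.18 (SD over 5535 probes) and WT1114 averaged 0.34 ± 0.21 (SD over 5534 probes). The other 10 tumours lay between -0.025 in KO1414 and 0.045 in KO1111, with a median of -0.0034, so WT1113 and WT1114 stood apart from all of them. Before the interval WT1113 averaged 0.02 and WT1114 0.03, against -0.07 to 0.02 in the others. After it, they averaged 0.06 and 0.05, against -0.05 to 0.04. The probe SD before the interval was 0.17 in WT1113 and 0.19 in WT1114, so single probes spread nearly as widely there as inside.

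**Figure D2:**
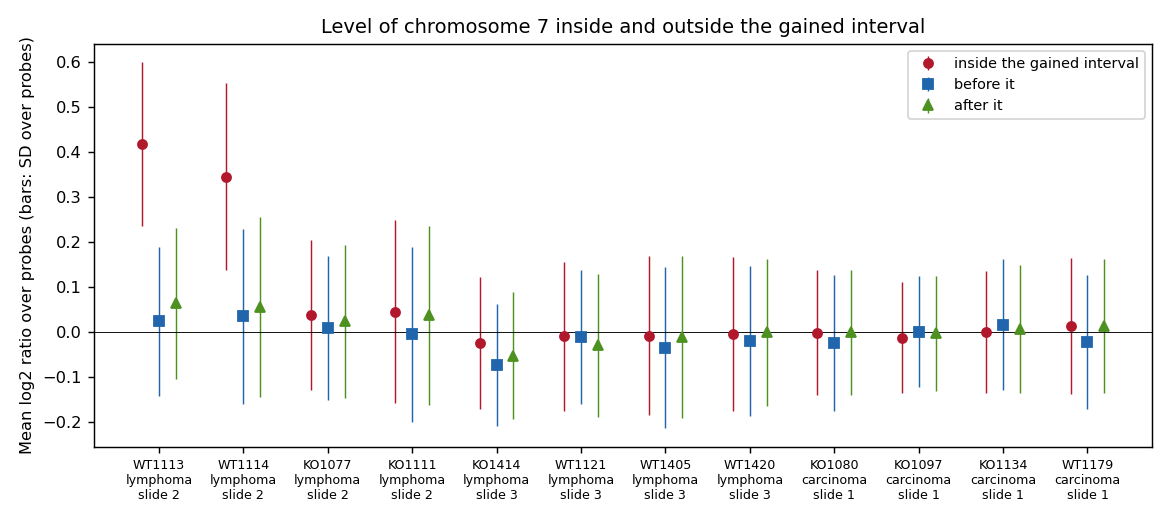
Points give the mean log2 ratio inside (circles), before (squares) and after (triangles) the gained interval in each of 12 tumours, with the SD over probes as bars. Only WT1113 and WT1114 have a circle away from 0, at 0.42 and 0.34, while the circles of the other 10 tumours lie between -0.025 and 0.045.

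Against the rest of the chromosome, without the 2.13 Mb that follow the interval, the level inside was higher by 0.39 in WT1113 and by 0.31 in WT1114. These are 65.8% and 52.3% of the 0.585 for 3 copies in place of 2. In the other 10 tumours the same difference lay between -0.01 and 0.04. In WT1113, 99.0% of the probes inside lay above the mean outside, and in WT1114 96.2%, against 46.1% to 63.5% in the others. The level of WT1114 inside was 0.826 times that of WT1113, with a mean difference of 0.07 ± 0.12 (WT1113 minus WT1114, SD over 5534 probes), against -0.01 ± 0.12 before the interval.

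The gained probes made up 5535 of 14231 autosomal probes in called gains in WT1113 and 5536 of 13993 in WT1114. Over all autosomes, 8.81% of probes lay in called gains in WT1113 and 8.67% in WT1114. A call needs a segment mean of at least 0.25 from 0 over at least 5 probes. Apart from these, 1 gain was called on chromosome 7, a focal one in carcinoma WT1179, where 5.6% of autosomal probes lay in gains. It held 14 probes with a mean of 0.41, at chr7:56919283-57095908. In the other 9 tumours no probe of chromosome 7 lay in a called gain. The share of all autosomal probes in called gains was 0.0142% in KO1080, KO1077 and WT1420, 0.0471% in KO1097, 0.604% in KO1134, 0.646% in KO1111, 1.23% in KO1414, 3.85% in WT1121 and 22.3% in WT1405. WT1405 thus had more of its genome in gains than either WT1113 or WT1114, and none of it on chromosome 7.

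The level inside the gain was not flat. WT1113 was divided into 5 called segments with means of 0.32, 0.40, 0.52, 0.39 and 0.48 from the proximal to the distal end. Over these same segments WT1114 averaged 0.28, 0.34, 0.42, 0.31 and 0.38, so both tumours had the same order from lowest to highest. KO1077, with no gain, averaged 0.02, 0.03, 0.06, 0.04 and 0.05, and KO1111 averaged 0.03, 0.04, 0.06, 0.02 and 0.06. The highest segment, chr7:105224309-109708214, was thus also highest in both of these. It was highest in KO1080, KO1097, KO1134 and WT1121 too, but not in WT1179, KO1414, WT1405 or WT1420. WT1114 by its own segmentation had 2 called segments, of 0.32 up to 104411601 and 0.37 from 104419267 on.

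The fourth segment of WT1113, chr7:109715647-116456562, had a gene name on 33.9% of its probes, against 66.5% to 74.3% in the other 4. Over 75 bins of 1 Mb inside the gain, the share of named probes correlated with the mean ratio at r = 0.45 in WT1113 and 0.46 in WT1114. In the other 10 tumours r lay between 0.06 and 0.42. Over the 57 bins outside the gain it was 0.41 in WT1113 and 0.27 in WT1114, against -0.20 to 0.21 in the others. Bins are neighbours on a chromosome and share an array, so these values describe and have no p. The bin means ran from 0.24 to 0.55 in WT1113 and from 0.18 to 0.45 in WT1114, and from at least -0.09 to at most 0.12 in the others, with no overlap. The part of the share of named probes in the steps was not tested.

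**Figure D3:**
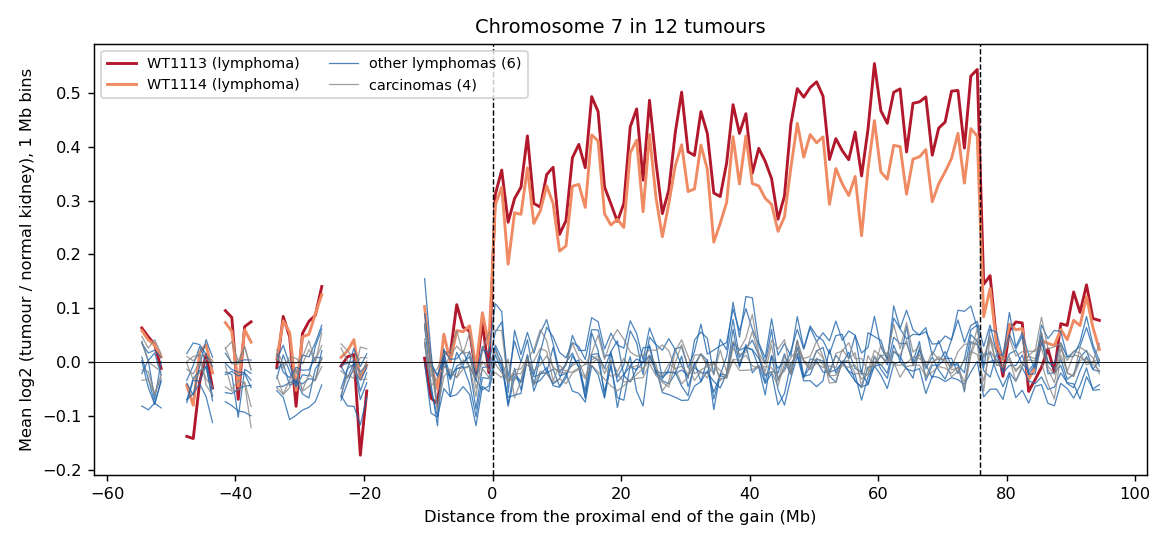
Lines give the mean log2 ratio in 1 Mb bins of at least 20 probes against the distance in Mb from the proximal end of the gain, with gaps where a bin held fewer. WT1113 (dark red) and WT1114 (orange) rise at 0 and fall at 75.9 Mb (dashed lines), and inside lie between 0.24 and 0.55 and between 0.18 and 0.45. The other lymphomas (blue) and the carcinomas (grey) stay within 0.12 of 0 in the same bins.

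Beyond the distal end the ratio did not return at once to its level elsewhere. The 196 probes of chr7:134009108-136140067, the first 2.13 Mb after the gain, averaged 0.15 ± 0.15 (SD over probes) in WT1113 and 0.11 ± 0.19 in WT1114. The rest of the chromosome after them averaged 0.05 in both. In WT1113 it was split into chr7:136153381-146758942, with a mean of 0.01 over 825 probes, and chr7:146768969-152520747, with 0.11 over 521 probes, neither of them called. In WT1114 it was not split. The same stretch averaged 0.05 in KO1077 and 0.03 in KO1111, and -0.05 to 0.05 in all 10 tumours without the gain. It was a segment of its own in WT1113, below the threshold for a call, but not in WT1114. At its far end, within AK153859, the nearest names before were Sec23ip, with 0.14 in WT1113 and 0.11 in WT1114, Mcmbp with 0.26 and 0.23, and Inpp5f, an imprinted phosphatase gene, with 0.26 and 0.32. Inpp5f also read 0.26 in KO1077 and 0.31 in KO1111, so all 4 tumours of slide 2 were alike at this gene. These 3 genes were chosen after their values were seen.

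Of the 645 genes that lie wholly inside, 587 (91.0%) had a mean of at least 0.25 in WT1113 and 507 (78.6%) in WT1114. Over all 20281 autosomal genes these shares were 14.3% in WT1113 and 15.1% in WT1114. Before the interval 58 of 688 genes (8.43%) reached 0.25 in WT1113 and 69 in WT1114. After it, 38 of 251 (15.1%) and 27 (10.8%) did. Of the slide 2 tumours without the gain, KO1077 had 35 such genes inside, where 5.52% of all autosomal genes reached 0.25, and KO1111 had 51, where 11.6% did. On slide 3 there were 1 in KO1414, 10 in WT1121, 14 in WT1405 and 16 in WT1420, where 2.86%, 6.26%, 23.7% and 2.72% of all autosomal genes did. Among the carcinomas there were 12 in WT1179, 7 in KO1134, 3 in KO1080 and 0 in KO1097, where 6.99%, 1.97%, 1.05% and 0.725% did. All 10 tumours thus had at most 7.91% of the genes inside at that level. The median gene inside read 0.44 in WT1113 and 0.36 in WT1114. All these counts follow from the choice of the interval and support nothing further.

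Among 207 genes inside with at least 5 probes, the highest in WT1113 were Ipo7 (0.65), an importer of proteins into the nucleus, Xpo6 (0.65), an exporter of actin from it, Lrrk1 (0.64), a kinase, Lcmt1 (0.64), a methyltransferase that acts on protein phosphatase 2A, and 2210018M11Rik (0.64). In WT1114 they were Rnf121 (0.63), Lcmt1 (0.63), ENSMUST00000138055 (0.59), Nup98 (0.56), a protein of the nuclear pore, and AK005418 (0.56). Lcmt1 was in both lists. It also read 0.20 in KO1077 and 0.35 in KO1111, and between -0.10 and 0.12 in the 8 tumours of slides 1 and 3. Lcmt1 was thus above 0 in all 4 tumours of slide 2, and highest in those with the gain.

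The lowest genes in WT1113 were A230057D06Rik (0.22), ENSMUST00000107533 (0.23), AK142799 (0.25), AK086712 (0.25) and U80893 (0.25). In WT1114 they were AK089776 (0.14), AK086712 (0.17), ENSMUST00000133824 (0.17), A230057D06Rik (0.18) and Chrna7 (0.18), a subunit of the nicotinic acetylcholine receptor. Of these 8 names, 7 lie between 67646000 and 70352596, near the imprinted genes Ube3a and Snrpn, and within the lowest segment or at its edge. The lowest of all genes with 5 or more probes still lay above 0 in both tumours.

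The 7 lists of genes, made with earlier results of these data known, describe what the interval holds, and 40.7% of all chromosome 7 genes lie in it. Of 27 listed genes of signalling in lymphocytes, 18 were read on chromosome 7, 12 of them in the gain. All 12 reached 0.25 in WT1113 and 11 in WT1114, with medians of 0.49 and 0.40, where 91.0% and 78.6% of all genes inside did and their medians were 0.44 and 0.36. Counts of this kind for the other lists are to be read against those shares and say nothing particular to a list. Prkcb, the kinase that links the B cell receptor to NF-kappaB, read 0.50 in WT1113 and 0.41 in WT1114 over 34 probes, against 0.07 in KO1077 and 0.09 in KO1111. Stim1, the calcium sensor of the endoplasmic reticulum, read 0.53 and 0.45 over 18 probes. Gab2, an adaptor of cytokine receptors, read 0.46 and 0.36 over 19 probes. Lat, the adaptor of the T cell receptor, was the 1 gene below 0.25 in WT1114, with 0.50 in WT1113 and 0.24 in WT1114 on 1 probe. The 6 listed genes before the gain, among them Relb, Bcl3 and Tgfb1, lay between -0.35 and 0.09 in WT1113 and between -0.31 and 0.20 in WT1114.

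Of the lymphocyte receptors, 17 of 26 were read on chromosome 7 and 2 lay in the gain. Il4ra, the receptor chain for interleukin 4, read 0.58 in WT1113 and 0.60 in WT1114 over 3 probes. Il21r, the receptor for interleukin 21, read 0.59 and 0.35 over 3 probes. The integrin gene Itgal, which lies after the gain within the next 2.13 Mb, read 0.09 and 0.05, and Itgam read 0.11 and 0.08. Itgax read 0.43 in WT1113 and 0.55 in WT1114, against 0.36 in KO1077 and 0.41 in KO1111.

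Growth genes and oncogenes were split by the ends. Of 18 read, 8 lay inside, and 8 in WT1113 and 7 in WT1114 reached 0.25. Igf1r, the receptor for insulin-like growth factor 1, read 0.34 in WT1113 and 0.29 in WT1114 over 30 probes, against -0.06 to 0.04 in the other 10 tumours. Ntrk3, a neurotrophin receptor, read 0.32 and 0.30 over 43 probes, and Rsf1, a chromatin remodeller, read 0.47 and 0.47 over 13 probes. Ccnd1, Fgf3 and Fgf15, which lie after the gain at the end of the chromosome, read 0.02, -0.11 and -0.03 in WT1113 and -0.01, -0.0094 and 0.15 in WT1114, each on 1 probe. Igf2, the growth factor, lies after the gain too and read -0.05 and -0.07. The receptor Igf1r was thus in the gain and its ligand Igf2 outside it.

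Of 22 listed genes of DNA repair and genome stability 18 were read, 11 of them inside, among them Mrpl17, a mitochondrial ribosomal protein gene. All 11 reached 0.25 in WT1113 and 10 in WT1114, where 91.0% and 78.6% of all genes inside did, with medians of 0.53 and 0.41. Blm, a helicase that resolves recombination intermediates, read 0.42 in WT1113 and 0.42 in WT1114 over 9 probes. Fanci and Palb2, of the repair of crosslinks and breaks, read 0.53 and 0.57 in WT1113 and 0.40 and 0.41 in WT1114. Fan1, a nuclease, read 0.66 in WT1113 and 0.51 in WT1114. It also read 0.63 in WT1405, 0.44 in WT1121 and 0.37 in WT1420, lymphomas with no gain of the interval, on the same 3 probes. Polg, the mitochondrial DNA polymerase, was the 1 gene below 0.25 in WT1114, with 0.23. Ercc1, Ercc2, Xrcc1, Lig1 and Pold1, all before the gain, lay between -0.06 and 0.11 in WT1113 and between -0.13 and 0.08 in WT1114.

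Of 17 imprinted genes read, 5 lay inside, and all 5 reached 0.25 in both tumours. Ube3a, read from the maternal copy in neurons, had 0.41 in WT1113 and 0.41 in WT1114 over 8 probes. Snrpn, read from the paternal copy, had 0.38 and 0.31 over 15 probes, and Atp10a had 0.27 and 0.29 over 16. Zim1, Peg3 and Usp29, which neighbour each other before the gain, read -0.24, -0.11 and -0.01 in WT1113 and -0.15, -0.10 and 0.0087 in WT1114. The cluster from Igf2 to Dhcr7 lay after the gain. Kcnq1 there read 0.13 in WT1113 and 0.14 in WT1114 over 30 probes, against 0.07 in KO1077 and 0.13 in KO1111. The arrays do not tell which parental copy was gained.

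Of 9 genes of iron, oxygen and globin read, 6 lay inside, and 6 in WT1113 and 5 in WT1114 reached 0.25. Nox4, an oxidase that makes reactive oxygen, read 0.32 in WT1113 and 0.24 in WT1114 over 16 probes. The globin genes Hbb-bh1 and Hbb-y read 0.33 and 0.43 in WT1113 and 0.48 and 0.37 in WT1114, each on 1 probe. Hamp, the gene of the iron hormone hepcidin, lies before the gain. It read 0.32 in WT1113, 0.36 in WT1114 and 0.35 in KO1077 on 1 probe. Of 12 tumour suppressor and cell death genes read, 5 lay inside, and all 5 reached 0.25 in both tumours. Tead1, a transcription factor of the Hippo pathway, read 0.43 in WT1113 and 0.34 in WT1114 over 23 probes.

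Likeness between tumours was measured as Pearson's r over probes. Over all 9811 chromosome 7 probes with a value in each tumour, WT1113 and WT1114 had r = 0.885, the highest of 66 pairs. The step at the ends, which both share, is part of that value. Over the 5525 such probes inside, r was 0.831, the third of 66 pairs, after KO1111 with WT1114 (0.839) and KO1077 with KO1111 (0.834). Over the 4286 probes outside, r was 0.805, the fourth of 66. After the mean of each tumour's own segments was subtracted, r over all chromosome 7 probes was 0.812, the fourth of 66, below KO1111 with WT1114 (0.851), KO1077 with KO1111 (0.833) and KO1077 with WT1114 (0.826). Within the gain it was then 0.82, also the fourth. All 3 pairs above it come from slide 2 and hold at least 1 tumour without the gain. Over the 151291 probes of the other autosomes, WT1113 and WT1114 had r = 0.755, the second of 66. No segment mean was subtracted there, so copy changes that both share, such as a gain on chromosome 1, are part of that value.

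Pairs from 1 slide were more alike in the median than pairs from different slides, with some overlap. Over the probes inside, the 18 pairs of the same slide had a median r of 0.675, from 0.503 to 0.839, and the 48 pairs of different slides had a median of 0.388, from 0.153 to 0.610. After subtraction of the median over the other 10 tumours at each probe, WT1113 and WT1114 had r = 0.748 inside, the fourth of 66, and 0.706 outside, the fifth. Inside, the medians of the 18 and 48 pairs became 0.520 and -0.01. Over the other autosomes WT1113 and WT1114 then had r = 0.715, the highest of 66, with the copy changes that both share again part of the value. The tumours of every pair share the probes and the reference DNA, and 18 of the 66 pairs also share a slide, so these values carry no p. In this series slide also moves with tumour type, since the carcinomas fill slide 1.

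**Figure D4:**
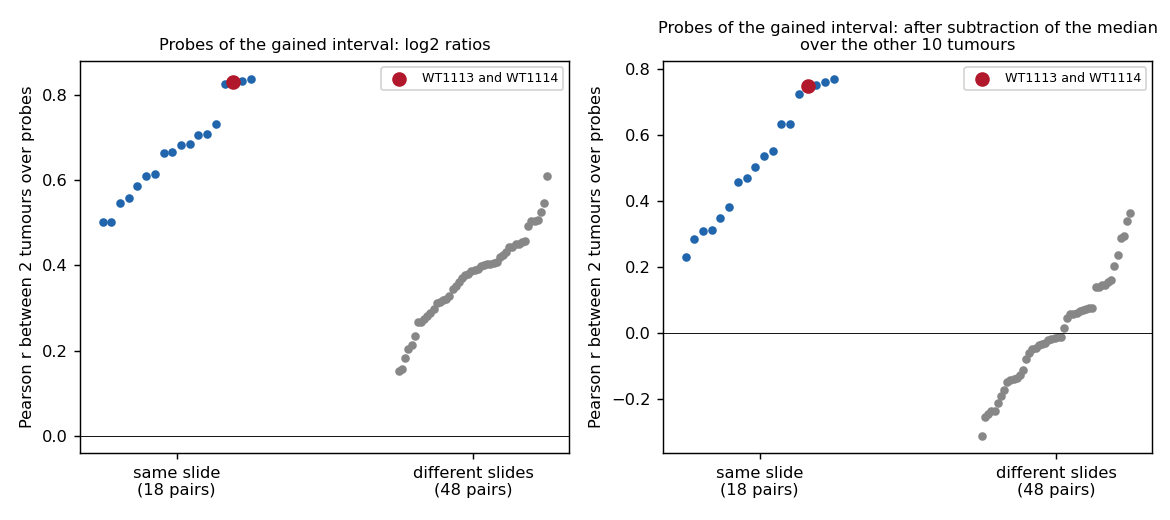
Each point is the Pearson r between a pair of tumours over the 5525 probes of the gained interval, for log2 ratios (left) and after the median of the other 10 tumours was subtracted (right), in ascending order within same-slide and different-slide pairs. The large red point, WT1113 with WT1114, lies among the highest same-slide pairs at 0.831 and 0.748, and the pair KO1111 with WT1114 lies above it in both panels, at 0.839 and 0.771.

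In means of 1 Mb, which lessen probe noise, WT1113 and WT1114 had r = 0.950 over 75 bins inside the gain and 0.896 over 57 bins outside. WT1113 with KO1077 had 0.671 inside and 0.556 outside, and WT1114 with KO1077 had 0.721 and 0.708. With KO1111, WT1113 had 0.456 inside and 0.301 outside, and WT1114 had 0.615 and 0.558. The slope of WT1114 on WT1113 was 0.758 inside and 0.564 outside, so WT1114 varied less from bin to bin.

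**Figure D5:**
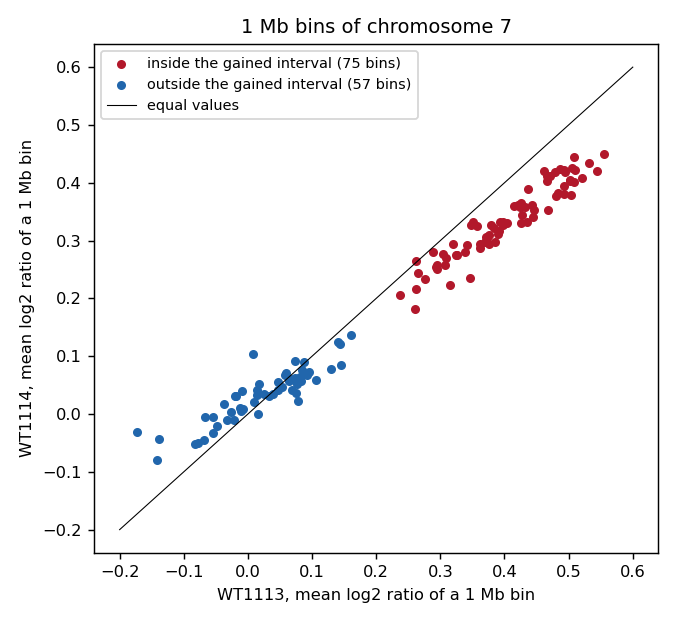
Each point is a 1 Mb bin, with its mean log2 ratio in WT1113 on the x axis and in WT1114 on the y axis. The 75 bins inside the gain (red) lie between 0.24 and 0.55 in WT1113 and mostly below the line of equal values, apart from the 57 bins outside (blue).

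Elsewhere in the genome the tumours with the gain differed on chromosomes 15 and 4 and shared a gain on chromosome 1. Within it, chr1:126963754-146941345 was called in both, with 0.26 in WT1113 and 0.40 in WT1114. Chromosome 15 averaged 0.37 in WT1113 and 0.07 in WT1114. The distal part of chromosome 4, chr4:141814047-155629081, averaged -0.29 in WT1113 and -0.0091 in WT1114. Chromosome 1 from 125805911 to its end averaged 0.23 in WT1113 and 0.38 in WT1114, against 0.25 in WT1405, and -0.12 to 0.05 in the other 9 tumours. Chromosome 15 was thus gained in WT1113 and not called in WT1114, and the loss on chromosome 4 likewise.

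Knockout and wild-type tumours, and treated and untreated ones, were compared gene by gene with limma over all 20281 autosomal genes, in 1 model with tumour type, genotype and treatment. Both tumours with the gain are lymphomas of treated wild types, so in these contrasts and in that of tumour type the interval was chosen with its values known, and its counts are a description. No chromosome 7 gene passed an adjusted p under 0.05 in knockouts against wild types, 0 of 1585, where 0.0641% of all autosomal genes passed, 0.00986% higher and 0.0542% lower in knockouts. At an unadjusted p under 0.05 there were 43 on chromosome 7 (2.71%), against 5.12% of all autosomal genes. The median gene of the interval differed by -0.11, against -0.03 over all genes. No chromosome 7 gene passed in treated against untreated mice either, 0 of 1585, where 0.0% of all genes passed. At an unadjusted p under 0.05 there were 425 (26.8%), against 10.5% of all autosomal genes. The median gene of the interval differed by 0.19, against 0.02 over all genes. WT1121 is the only treated lymphoma on slide 3, so without it treatment and slide cannot be told apart among the lymphomas. Without lymphoma WT1121, which is treated and has no gain, 156 genes of chromosome 7 passed (9.84%), where 2.36% of all autosomal genes did. Of these 93 lay in the interval (14.4% of its genes), all 93 higher. Of the 156 on chromosome 7, 153 were higher and 3 lower, and of 478 called over all autosomes 424 were higher and 54 lower. WT1113 and WT1114 were then the only treated wild-type lymphomas, and the interval was chosen by their values, so its counts support nothing further. The cause of the shared direction was not tested. The limma test thus gave no call for treatment on chromosome 7 with all 12 tumours, and its count changed when WT1121 was left out.

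Carcinomas and lymphomas differed at 77 of 1585 chromosome 7 genes, 25 higher and 52 lower in carcinomas, where 13.6% of all autosomal genes passed, 0.873% higher and 12.7% lower. In the interval 12 of 645 genes passed (1.86%), all 12 lower in carcinomas, so the share was below that over all genes. The median gene of the interval differed by -0.13, against -0.09 over all genes. With arrays centred on the autosomal median 44 chromosome 7 genes were higher and 21 lower, where 1.95% of all autosomal genes were higher and 10.5% lower. With the normexp background correction 24 were higher and 30 lower, where 0.848% of all were higher and 10.8% lower. In the interval, 1 of 6 calls was higher in carcinomas with the autosomal median and 3 of 7 with normexp. The carcinomas fill slide 1 and no other tumour lay on it, so tumour type and slide cannot be told apart. Without WT1121 the count was 231 (14.6%), with 118 in the interval (18.3%), where 16.2% of all autosomal genes passed. The count was 38 without KO1080, 43 without KO1097, 44 without WT1179, 31 without KO1077, 27 without KO1111 and 35 without WT1114. These are 1.7% to 2.78% of the chromosome 7 genes, where 10.5% to 12.8% of all autosomal genes passed.

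Among the chromosome 7 genes called, those with the largest difference were mostly read by 1 probe. Zfp688, a zinc finger gene after the gain, read -0.27, -0.75, -1.19 and -1.43 in the carcinomas KO1080, KO1097, KO1134 and WT1179, against -0.15 to 0.13 in the 8 lymphomas. The groups did not overlap, and the difference was -0.97 ± 0.18 (SE, limma adjusted p = 0.00177). Kcnn4, a potassium channel gene with 2 probes, read -0.47, -0.37, -0.57 and -0.37 in those carcinomas, against -0.05 to 0.27 in the lymphomas. It differed by -0.62 ± 0.08 (SE, limma adjusted p = 0.000258). Maz, a zinc finger gene after the gain, read -0.95, -0.55, -1.15 and -0.59 in the carcinomas, against -0.27 to 0.09 in the lymphomas. The groups did not overlap, and the difference was -0.55 ± 0.11 (SE, limma adjusted p = 0.00285). Slc25a22, a mitochondrial glutamate carrier gene, was lower too, with a difference of -0.49 ± 0.11 (limma adjusted p = 0.00967).

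The lymphomas of slide 2 carried several of the other calls. Apoc2, an apolipoprotein gene, read 0.66 in WT1113, 1.04 in WT1114, 0.71 in KO1077 and 0.79 in KO1111, and -0.15 to 0.10 in the 4 lymphomas of slide 3, against -0.14 to 0.02 in the carcinomas. Ascl2, an imprinted transcription factor gene, read 0.58, 1.11, 0.40 and 0.59 in the same slide 2 lymphomas, and -0.13 to 0.20 on slide 3. Cd177, a neutrophil surface protein, read 0.39, 0.53, 0.45 and 0.48, and -0.52 to -0.22 on slide 3. The differences were -0.71 ± 0.15 for Apoc2, -0.64 ± 0.15 for Ascl2 and -0.52 ± 0.13 for Cd177 (SE), with limma adjusted p of 0.0059, 0.00883 and 0.0157. Cd177 read -0.20 to -0.04 in the carcinomas, above all 4 lymphomas of slide 3. Myod1, a muscle transcription factor gene, was higher in carcinomas by 0.61 ± 0.15 (SE, limma adjusted p = 0.0158). It read 0.58, 0.55, 0.32 and 0.63 in KO1080, KO1097, KO1134 and WT1179, against -0.35 to 0.44 in the lymphomas, so the groups overlapped.

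Of the list genes, 4 of 57 outside the interval and 1 of 49 inside it passed in carcinomas against lymphomas. Over all chromosome 7 genes 4.86% passed, and over all autosomal genes 13.6%, so these counts say nothing particular to the lists. Those outside were Myod1, Ascl2, Cd177 and Relb, a subunit of NF-kappaB that lies before the gain. Relb read -0.66, -0.36, -0.58 and -0.51 in the carcinomas KO1080, KO1097, KO1134 and WT1179, against -0.17 to 0.05 in the 8 lymphomas, on 2 probes. The groups did not overlap, and the difference was -0.42 ± 0.07 (SE, limma adjusted p = 0.00131). Genes of the interval are given by their levels, since the interval was chosen by them. AK144560, on 1 probe, read -0.03 to 0.18 in the carcinomas, against 1.01 in WT1113, 0.88 in WT1114, 0.58 in KO1077, 0.58 in KO1111 and -0.12 to 0.35 in the lymphomas of slide 3. AK031634, on 1 probe, read -0.30 to -0.0068 in the carcinomas, against 0.52 in WT1113, 0.73 in WT1114, 0.33 in KO1077, 0.22 in KO1111 and -0.15 to 0.21 in the lymphomas of slide 3. Il4ra read -0.07, -0.11, -0.04 and -0.03 in the carcinomas KO1080, KO1097, KO1134 and WT1179. In the lymphomas it read 0.58 and 0.60 with the gain, 0.19 and 0.21 in KO1077 and KO1111, and 0.03 to 0.13 on slide 3.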

How the data were processed

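DNA of 12 mouse tumours was read on 2-colour Agilent arrays, 1 array per tumour. The processed red and green intensity of each spot was deposited with background subtraction and dye normalisation by Agilent Feature Extraction 10.7 (build mm9), per the file headers. The raw mean and background intensity columns of the deposited files served for the normexp alternative. The deposited log10 ratio of red over green and the authors' series-wide table of log2 values, whose scale is not stated per the labels, served as alternatives. That table correlated at 0.9999 or more with the scanner ratios, with medians from -0.02 to 0.0248, and ran in the same direction.

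Control and outlier spots were left out, spots of a probe averaged, and log2 ratios centred on the autosomal mode (kernel bandwidth 0.05). Segments came from penalised least squares (10 times log number of probes times noise variance), checked on simulated data, with calls at 0.25 over at least 5 probes. Gene names are those of the array design, and 1184 of 1585 chromosome 7 names matched the RefSeq table (GRCm38), which was used for names and gene order only. Gene means were compared with limma 3.58.1 in R 4.3.3 (lmFit, eBayes, Benjamini-Hochberg over 20281 genes). Python 3.11.15, numpy 2.4.6 and pandas 2.3.3 were used. The number of arrays limits precision. Animals are separate, but each contrast rests on few of them.

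Named are the 3 gene names nearest each end on either side, up to 10 called genes with the largest difference per contrast, the 5 highest and 5 lowest genes with at least 5 probes in each tumour with the gain, and genes of 7 lists. The members and lists were chosen with earlier results of these data known.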

Additional observations from a re-analysis of the deposited data

How the results depend on the processing

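Of the levels of chromosome 7, 48 values moved by less than 0.03, the SD of the level before the interval over 8 lymphomas, and 8 by more. With centring on the autosomal median, WT1114 averaged 0.30 inside, -0.0104 before and 0.0093 after, and the lowest other tumour -0.0851 inside. With normexp, WT1113 averaged 0.46 inside, WT1114 -0.018 before and 0.0044 after, and the highest other tumour 0.0075 inside. The 24 values of the ends and the 16 of likeness stayed within their limits. For carcinomas against lymphomas, the interval count of 12 became 6 with the autosomal median, 7 with normexp and 26 with slide as a random block. All 12 were lower in carcinomas, but 1 of the 6, 3 of the 7 and 1 of the 26 were higher. The slide correlation in the random block run was -0.0354, and the carcinomas fill slide 1, so that run cannot separate tumour type from slide. Leaving out 1 tumour gave 27 to 231 calls on chromosome 7 and 4 to 118 in the interval. The interval count was 5 without KO1080, KO1134 or WT1179, 4 without KO1097, KO1077, KO1111 or WT1114, 6 without KO1414, 7 without WT1405, 8 without WT1113 or WT1420 and 118 without WT1121. For treated against untreated mice the range was 0 to 156 on chromosome 7 and 0 to 93 in the interval. The counts of 156 and 93 came without WT1121, where treatment and slide cannot be told apart among the lymphomas. The knockout contrast gave 0 calls on chromosome 7 by limma in each alternative run, with 13 (without KO1077) to 350 (without WT1121) genes of chromosome 7 at an unadjusted p under 0.05. Myod1 had an adjusted p of 0.0887 without WT1179 and 0.0766 without KO1111, and Cd177 0.0506 without KO1077 and 0.0617 without KO1111. With the autosomal median and with normexp the level of WT1114 before the interval turned from just above 0 to just below it, while none of the 10 called genes with the largest difference between tumour types changed sign in the alternatives run. The cause of these changes was not tested. Lymphomas alone hold no contrast of tumour type. No paired analysis was possible because animal numbers are not shared between groups.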

Other observations

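Single probes far from their neighbours formed 20 segments of 1 probe on chromosome 7, none of them in WT1113 or WT1114. On slide 3 the probe of ENSMUST00000108201 read 1.88 in WT1121 and 2.02 in WT1405. The Igf1r probe at chr7:75148612-75148671 read -2.41 in WT1420, and 1 probe does not make a call. At Nox4, 1 probe read -1.57 in carcinoma KO1097, and at Pcsk6, 1 probe read -1.67 in carcinoma KO1134. These probes were chosen after their values were seen.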
